A study of Mus musculus with 12 samples.

Results

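The 4 TEAD transcription factor genes, *Tead1*, *Tead2*, *Tead3* and *Tead4*, and the VGLL cofactor genes *Vgll3* and *Vgll4* were followed by bulk RNA-Seq in W-20 cells, a mouse bone marrow stromal cell line. These 6 genes, of 56980 in the count matrix, were found by matching the stable part of each Ensembl identifier to its symbol, and all 6 passed the filter on low counts. Each of 4 groups held 3 libraries: WT cells with vehicle (PBS), WT cells with PTH (parathyroid hormone, 50 nM for 2 hours), Y428F cells with vehicle and Y428F cells with the same PTH treatment. All libraries came from W-20-17 cells, and a library held between 17127897 and 19057319 counts in total (median 17740980). The study made its mutant lines with plasmids for FLAG-tagged YAP and selected positive clones with puromycin, and in the Y428F change the tyrosine of YAP is replaced by phenylalanine. The sample titles name these libraries Y428F, whereas their genotype label reads WT. The study's text names the mutant cells of the RNA-Seq with a serine-to-alanine change in YAP in addition to Y428F, and in other sentences with Y428F alone. It also describes a line with Y428F alone, and the labels name no serine change. No library is labelled as carrying an introduced wild-type YAP, so the mutation and other differences between the lines cannot be told apart. The study speaks in general of independent experiments, but neither the labels nor its RNA-Seq methods say that the libraries of a group came from separate cultures, so the p-values measure the spread between these libraries, which may be technical.

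TEAD proteins bind DNA through their TEA domain but have little activating power of their own, and depend on cofactors that dock on a shared surface. YAP and TAZ are the main coactivators, and the Hippo kinases keep them out of the nucleus by phosphorylating them. VGLL proteins bind TEADs through short motifs named Tondu domains. *VGLL4* competes with YAP for TEAD and is generally a repressor, and *VGLL3* is a TEAD cofactor that can induce Hippo pathway genes.

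PTH raised 3 of the 6 genes, *Tead1*, *Tead4* and *Vgll3*, in both lines, and lowered none by the test. In WT cells the increases were 1.72-fold for *Tead1*, 2.21-fold for *Tead4* and 2.02-fold for *Vgll3*. Among all genes tested, 6.88% were called higher and 4.91% lower with PTH in the WT line, and 6.61% and 5.78% in the Y428F line. These shares depend on single libraries, since the number of genes called higher in WT cells was 1072 and fell to 613 without the first WT library with PTH, and the number called lower was 765 and fell to 292, while the 3 members stayed called. Without PTH, the Y428F line differed from WT cells in 4 of the 6 genes, with more *Tead1* and *Tead4* and less *Tead3* and *Vgll4* mRNA. That comparison called 45.1% of all genes, 22.4% higher and 22.7% lower, beside 2 of 6 members in each direction. A gene was called at an adjusted p under 0.05 in the quasi-likelihood test of edgeR. The adjustment by Benjamini and Hochberg ran over 15583 genes for PTH in WT cells, a comparison fitted on the 6 WT libraries, and over 17691 genes for the other comparisons, which were fitted on all 12 libraries. Expression is given in CPM, a count relative to the size of its library, with TMM factors applied.

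The bases just upstream of the 3 genes that rose with PTH are shown because PTH signals through cAMP, whose transcription factor CREB binds the cAMP response element (CRE). The letters TGACGTCA stand for the full CRE, TGACG for its half-site, CATTCC for the TEAD site and TGANTCA for the AP-1 site, and each was searched on both strands in the window from 250 bases before to 50 bases after the start of the Ensembl canonical transcript of each gene in GRCm39. This start lies at the outermost annotated start of the gene for *Tead1*, *Tead2*, *Tead3* and *Vgll3*, but 10 bases inside the gene for *Tead4* and 48157 bases inside it for *Vgll4*, so that the upstream promoter of *Vgll4* was not searched. Each sequence reads 5′ to 3′ on the strand of the gene and ends at the last base before the transcript start, and capitals mark CRE and TEAD letters. *Tead1* lies on the plus strand (chr7:112278272-112278521), *Tead4* on the minus strand (chr6:128277777-128278026) and *Vgll3* on the plus strand (chr16:65611673-65611922).
Tead1: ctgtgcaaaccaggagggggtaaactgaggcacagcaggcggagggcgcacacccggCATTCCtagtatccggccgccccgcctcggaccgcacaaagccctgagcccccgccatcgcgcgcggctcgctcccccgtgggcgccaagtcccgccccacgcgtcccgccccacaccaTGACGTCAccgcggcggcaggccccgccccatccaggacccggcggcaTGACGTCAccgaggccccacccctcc
Tead4: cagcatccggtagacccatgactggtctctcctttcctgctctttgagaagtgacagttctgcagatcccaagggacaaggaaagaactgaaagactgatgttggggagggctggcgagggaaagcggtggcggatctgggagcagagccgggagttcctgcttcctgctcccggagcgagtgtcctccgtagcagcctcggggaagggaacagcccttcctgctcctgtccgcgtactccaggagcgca
Vgll3: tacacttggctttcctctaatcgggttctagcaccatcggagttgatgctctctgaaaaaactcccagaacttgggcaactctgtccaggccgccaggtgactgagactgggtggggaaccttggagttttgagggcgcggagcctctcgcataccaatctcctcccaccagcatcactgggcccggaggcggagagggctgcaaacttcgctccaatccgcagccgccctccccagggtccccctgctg
*Tead1* held 2 full CREs, at bases -74 to -67 and -26 to -19 counted from a first transcribed base numbered 0, and 3 TEAD sites, at -193 to -188 and, downstream of the start, at 28 to 33 and 40 to 45. All 4 of its half-sites lie inside the full CREs. Of 21770 protein-coding promoter windows of the same length, 2.44% held at least 1 full CRE and 0.0873% at least 2, whereas 14% held at least 1 TEAD site and 0.106% at least 3. The half-site was found in 22.6% and the AP-1 site in 7.14% of these windows. None of the 4 sets of letters was present in the windows of *Tead2*, *Tead4*, *Vgll3* or *Vgll4*, and *Tead3* held 1 TEAD site at -170 to -165. The 3 genes that rose with PTH therefore did not share these letters. A match or its absence in such a window is a description of the letters alone.

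**Figure D1:**
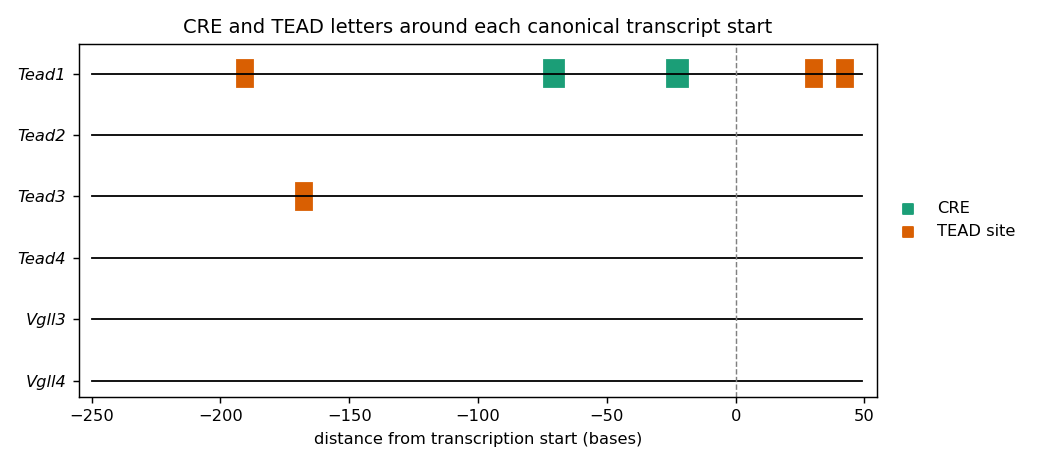
Positions of CRE and TEAD letters from 250 bases before to 50 bases after the start of the Ensembl canonical transcript of each gene (x axis, bases, dashed line at the start), with 1 line per gene. Both CREs are in *Tead1*, which also has 3 of the 4 TEAD sites.

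*Tead1* (ENSMUSG00000055320.19, chr7:112278522-112506014 in GRCm39, plus strand) encodes a broadly expressed TEAD factor. Its level in the 3 WT libraries with vehicle was 98.9, 90.3 and 99.8 CPM, and with PTH it was 170.9, 177 and 147 CPM. In Y428F cells it was 130.3, 130.6 and 132 CPM with vehicle and 183, 231 and 233 CPM with PTH. All libraries with PTH were above all libraries with vehicle of the same line, the 4 groups did not overlap, and the third WT library and the first Y428F library were the lowest of their PTH groups. The log2 fold change with PTH was 0.78 (SE 0.074, adjusted p = 1.67e-05 by edgeR's quasi-likelihood test) in WT cells and 0.72 (SE 0.082, adjusted p = 4.62e-06) in Y428F cells. The difference between these responses was -0.054 on the log2 scale, with a 95% interval from -0.30 to 0.19 (adjusted p = 0.972). The Y428F line had 1.36-fold more *Tead1* than WT cells with vehicle (log2 0.44, SE 0.083, adjusted p = 0.000165) and 1.31-fold more with PTH (log2 0.39, SE 0.081, adjusted p = 0.000484). The ranking of the groups was thus WT with vehicle, Y428F with vehicle, WT with PTH and Y428F with PTH, with no overlap between neighbours.

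*Tead4* (ENSMUSG00000030353.16, chr6:128201251-128277786, minus strand), known for its part in trophectoderm and muscle progenitors, was the least abundant TEAD gene, with 93 to 381 counts per library. WT cells had 6.93, 5.29 and 5.90 CPM with vehicle and 15.3, 12.8 and 11.8 CPM with PTH. Y428F cells had 12.6, 12.8 and 13.0 CPM with vehicle and 18.3, 21.4 and 16.5 CPM with PTH. Untreated Y428F cells therefore stood within the range of PTH-treated WT cells, the only neighbouring groups that overlapped. The log2 fold change with PTH was 1.14 (SE 0.14, adjusted p = 0.000146) in WT cells and 0.55 (SE 0.12, adjusted p = 0.00335) in Y428F cells. Y428F cells had 2.12-fold more *Tead4* than WT cells with vehicle (log2 1.08, SE 0.13, adjusted p = 7.36e-07) and 1.41-fold more with PTH (log2 0.49, SE 0.12, adjusted p = 0.00165). The response was smaller in Y428F cells by 0.59 on the log2 scale (SE 0.18, 95% interval from -0.96 to -0.22), with an unadjusted p of 0.00322 and an adjusted p of 0.282 in edgeR's quasi-likelihood test. This difference was therefore not called, and its adjusted p ranged from 0.0663 to 0.636 over all settings tried.

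*Vgll3* (ENSMUSG00000091243.3, chr16:65611923-65663369, plus strand) responded to PTH and did not differ by the test between the lines. Its level with vehicle was 79.7, 75.6 and 78.4 CPM in WT cells and 77.0, 80.5 and 83.6 CPM in Y428F cells. With PTH it was 161, 162 and 146 CPM in WT cells and 147, 159 and 154 CPM in Y428F cells. The 6 libraries with PTH were all above the 6 with vehicle, and the lines overlapped within each treatment. The log2 fold change with PTH was 1.01 (SE 0.062, adjusted p = 3.29e-07) in WT cells and 0.93 (SE 0.058, adjusted p = 1.55e-09) in Y428F cells. Of the 6 genes, *Vgll3* had the narrowest interval among those that rose for the difference in response, from -0.24 to 0.097 around -0.073 (adjusted p = 0.918). The line difference was 0.045 with vehicle (SE 0.059, adjusted p = 0.578) and -0.028 with PTH (SE 0.057, adjusted p = 0.722).

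**Figure D2:**
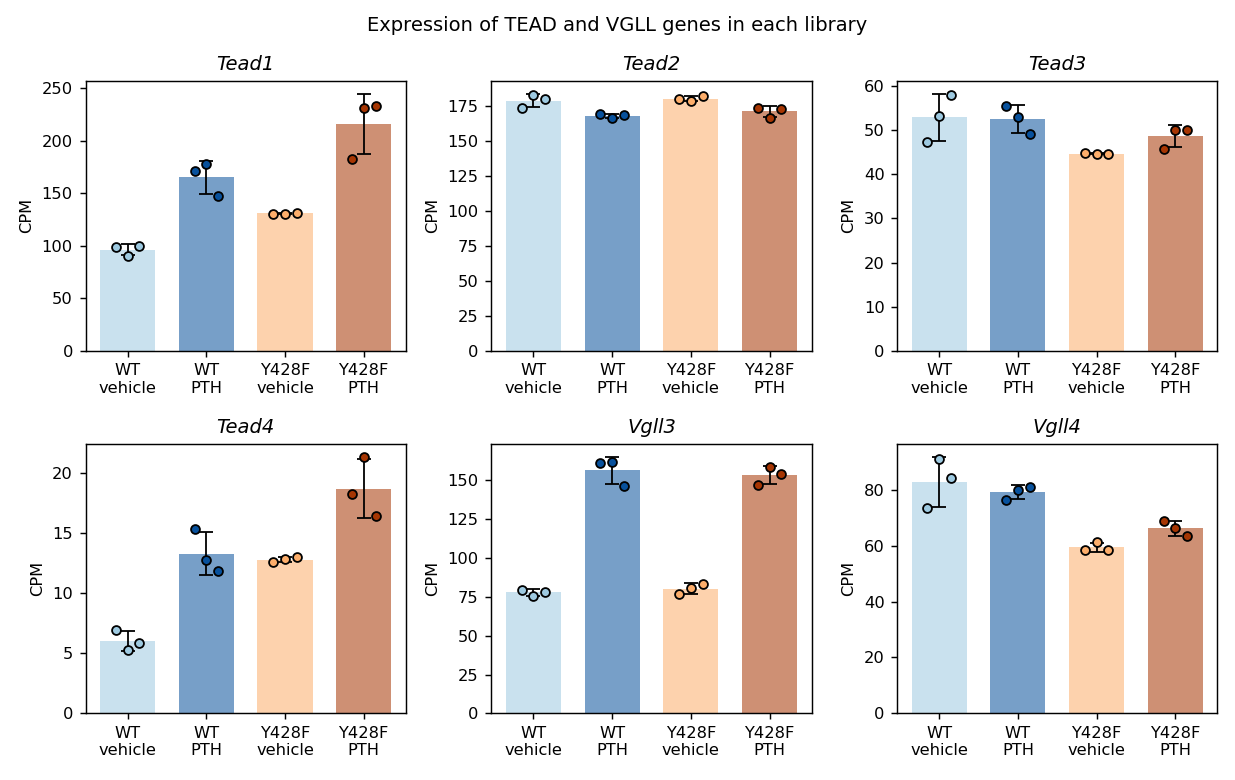
Level of each of the 6 genes in CPM (y axis, starting at 0) in each of the 4 groups, with 1 point per library, bars for the mean and whiskers for its SD (n = 3). *Tead1*, *Tead4* and *Vgll3* are higher in every library with PTH than in any with vehicle of the same line, and *Vgll4* is lower in every Y428F library than in any WT library of the same treatment.

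*Vgll4* (ENSMUSG00000030315.16, chr6:114837589-114946955, minus strand) differed between the lines and was not called for PTH. WT cells had 73.4, 91.1 and 84.2 CPM with vehicle and 76.3, 80.0 and 80.9 CPM with PTH. Y428F cells had 58.4, 61.1 and 58.6 CPM with vehicle and 68.8, 66.2 and 63.4 CPM with PTH. Every Y428F library was below every WT library, with or without PTH. *Vgll4* was lower in Y428F cells by 0.48 on the log2 scale with vehicle (-0.48, SE 0.069, adjusted p = 6.60e-06) and by 0.26 with PTH (-0.26, SE 0.069, adjusted p = 0.00403). The log2 fold change with PTH was -0.060 (SE 0.078, adjusted p = 0.709) in WT cells, whose treatments overlapped. In Y428F cells it was 0.16 (SE 0.069, adjusted p = 0.168), where the libraries did not overlap. The difference in response was 0.22 (95% interval from 0.020 to 0.43), with an unadjusted p of 0.0329 and an adjusted p of 0.652.

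*Tead2* (ENSMUSG00000030796.18, chr7:44865172-44883071, plus strand), a TEAD gene known from the early embryo and neural progenitors, was called in no comparison. WT cells had 174, 183 and 180.1 CPM with vehicle and 169, 166 and 168 CPM with PTH. Y428F cells had 180.2, 179 and 182 CPM with vehicle and 174, 167 and 173 CPM with PTH. The libraries with PTH lay below those with vehicle in each line, without overlap, but the difference was small. Its log2 fold change with PTH was -0.084 (SE 0.056, adjusted p = 0.397) in WT cells and -0.075 (SE 0.049, adjusted p = 0.382) in Y428F cells. The 95% interval of the WT change ran from -0.20 to 0.036. Between the lines *Tead2* differed by 0.012 (SE 0.049, adjusted p = 0.869) with vehicle and 0.028 (SE 0.049, adjusted p = 0.679) with PTH, and the lines overlapped in both treatments.

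*Tead3* (ENSMUSG00000002249.22, chr17:28550645-28569791, minus strand), best known from the placenta, had 47.4, 53.2 and 58.1 CPM in WT cells with vehicle and 55.5, 53.0 and 49.1 CPM with PTH. Y428F cells had 44.9, 44.5 and 44.7 CPM with vehicle and 45.8, 50.1 and 50.02 CPM with PTH. The WT treatments overlapped, and the WT libraries with vehicle were the most dispersed. With PTH the log2 fold change was -0.0024 (SE 0.084, adjusted p = 0.992) in WT cells and 0.12 (SE 0.074, adjusted p = 0.340) in Y428F cells. *Tead3* was lower in Y428F cells with vehicle by 0.24 on the log2 scale (-0.24, SE 0.073, adjusted p = 0.00976). This call was lost without the third WT library with vehicle, the highest of the 3 (-0.17, adjusted p = 0.0880). With PTH the lines overlapped and differed by -0.11 (SE 0.073, adjusted p = 0.233).

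**Figure D3:**
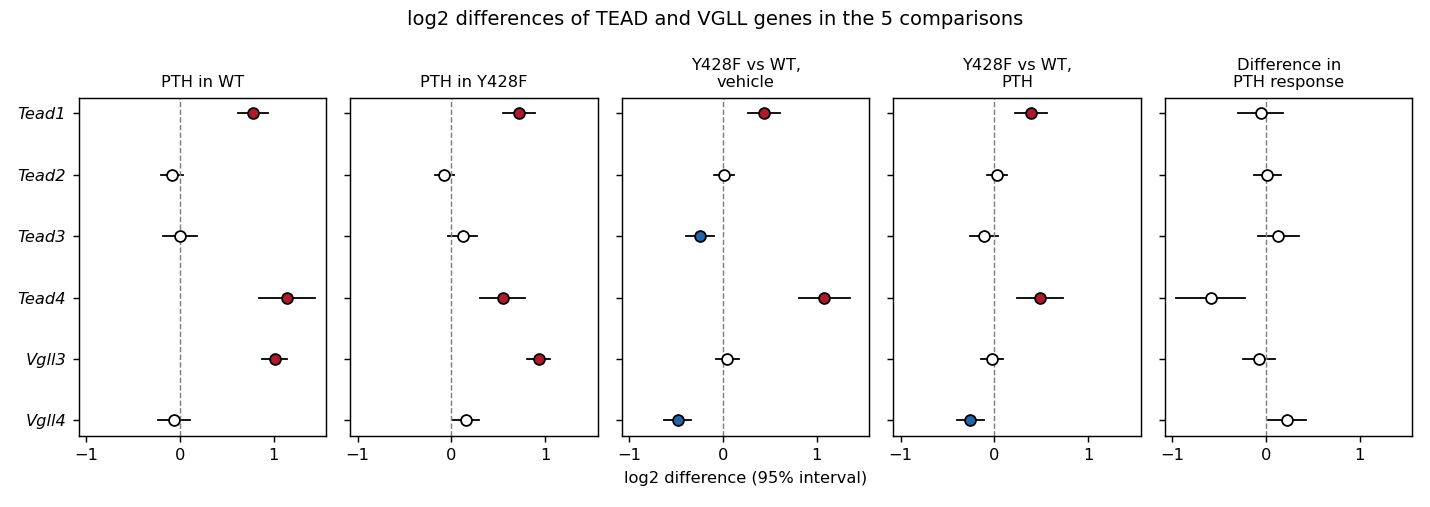
Log2 differences of the 6 genes (x axis) with their 95% intervals for the response to PTH in each line, the difference between lines in each treatment and the difference between the 2 responses, with points filled red for genes called higher, blue for genes called lower and open for the rest. *Tead1*, *Tead4* and *Vgll3* lie to the right of 0 for PTH in both lines, and no gene is called for the difference between the responses.

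None of the 6 genes was called for the difference in response between the lines. Of all genes 0.413% were called, 0.17% for a response that was higher in the Y428F line and 0.243% for one that was lower. These were 30 and 43 genes, and fits without 1 library gave 6 to 37 and 18 to 57. An unadjusted p under 0.05 was reached by 2 of the 6 genes, *Tead4* and *Vgll4*, whose differences had opposite signs. DESeq2's Wald test also called none, with an adjusted p of 0.242 for *Tead4* and 0.727 for *Vgll4*. With 3 libraries in each group, the intervals allowed differences of up to 0.30 on the log2 scale for *Tead1* in the direction of a smaller Y428F response, and the p-values do not show that the lines respond alike. With PTH, 45.7% of all genes were called between the lines, 22.8% higher and 23% lower. At that treatment *Tead1* and *Tead4* were called higher and *Vgll4* lower in Y428F cells, and *Tead2*, *Tead3* and *Vgll3* were not called. The comparisons of the lines and of the treatments share libraries with each other, so they are not independent.

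To compare the abundance of the genes with each other, CPM were divided by the length of all exons of each gene, with overlapping exons merged. In WT cells with vehicle, *Tead2* was the most abundant TEAD gene at 32.8 ± 0.889 CPM per kilobase (SD, n = 3). *Tead3* had 7.88 ± 0.796, *Tead1* 7.10 ± 0.386 and *Tead4* 0.996 ± 0.137 CPM per kilobase. *Tead1* and *Tead3* overlapped in level there, whereas the other neighbours in this order did not. *Vgll4* had 15.3 ± 1.65 and *Vgll3* 10.5 ± 0.278 CPM per kilobase in those libraries, and with PTH *Vgll3* at 21.0 ± 1.19 stood above *Vgll4* at 14.6 ± 0.451. In untreated Y428F cells the 2 genes overlapped, at 10.8 ± 0.444 CPM per kilobase for *Vgll3* and 11.0 ± 0.278 for *Vgll4*. The order of *Vgll4* depends on the length used: with the longest transcript of each gene *Vgll4* had 37.7 CPM per kilobase in WT cells with vehicle, above *Vgll3* at 10.6, and stayed above it with PTH. *Tead3* stayed above *Tead1* in WT cells with vehicle by the longest transcript, at 15.4 against 9.66 CPM per kilobase. Without division by length *Tead1* was above *Tead3* there, at 96.3 against 52.9 CPM. *Vgll1* and *Vgll2*, the other VGLL genes, had 1 count each over all 12 libraries, under the 10 counts in total that the filter needed, and were not tested.

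*Tead2* held the largest share of the summed TEAD level per kilobase in every group, and this share was lower with PTH. Without division by length, *Tead1* held more of the TEAD counts than *Tead2* in PTH-treated Y428F cells (47.4% against 37.8%). Per kilobase the *Tead2* share was 67.2% ± 1.21 (SD, n = 3) in WT cells with vehicle and 58.1% ± 2.08 with PTH. In Y428F cells it was 64.2% ± 0.140 with vehicle and 54.5% ± 2.86 with PTH. The libraries of the 2 treatments did not overlap in either line. *Tead1* made up 14.6% ± 0.926 in WT cells with vehicle and 23.0% ± 1.59 with PTH, and 18.7% ± 0.0719 and 27.6% ± 2.69 in Y428F cells. The share of *Tead4* was 2.05% ± 0.329 and 4.14% ± 0.446 in WT cells, and 4.10% ± 0.0526 and 5.36% ± 0.719 in Y428F cells. The share of *Tead3* was 16.1% ± 1.19 and 14.8% ± 0.418 in WT cells, which overlapped, and 12.9% ± 0.0965 and 12.6% ± 0.177 in Y428F cells. The sum itself was 48.7 ± 1.35 CPM per kilobase in WT cells with vehicle and 52.9 ± 1.77 with PTH, and 51.4 ± 0.373 and 57.6 ± 2.17 in Y428F cells. Shares are tied to each other because they add up to the whole, and they were not tested. In bulk RNA, fewer cells of a type and less RNA per cell cannot be told apart.

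**Figure D4:**
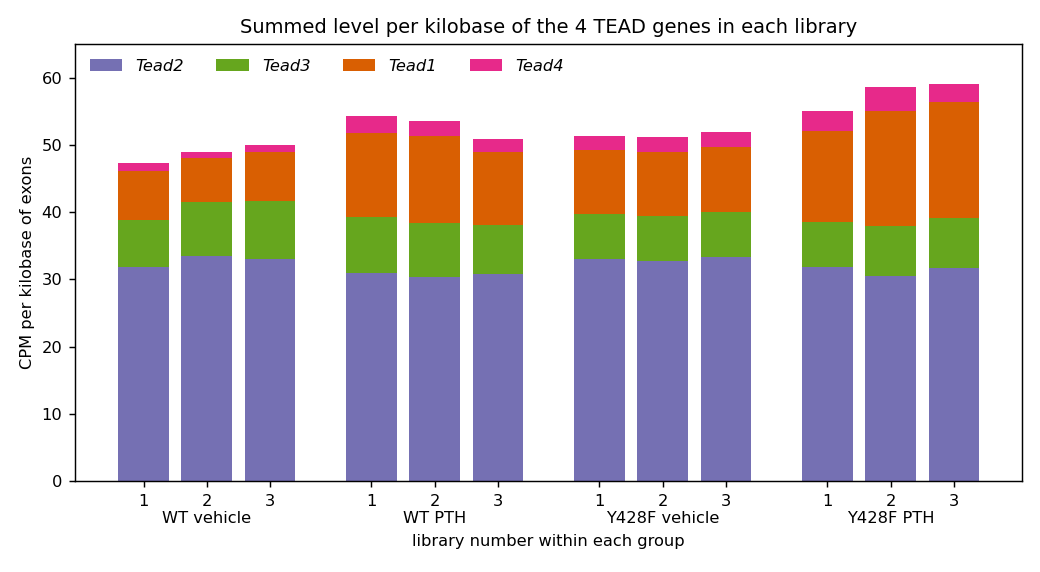
Summed level of the 4 TEAD genes in CPM per kilobase of exons (y axis, starting at 0) in each of the 12 libraries (x axis), with each gene as a coloured part of the bar. The *Tead2* part is the largest in every library and the *Tead1* part is larger in each library with PTH than in any with vehicle of the same line.

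*Yap1* and *Wwtr1*, which encode the coactivators YAP and TAZ, were higher with PTH and lower in the Y428F line. *Yap1* had 180.6, 191.9 and 193.9 CPM in WT cells with vehicle and 244.7, 246.2 and 230.4 CPM with PTH. In Y428F cells it had 149.6, 141.2 and 148.9 CPM with vehicle and 171, 168.5 and 173.8 CPM with PTH. No 2 groups overlapped, and PTH-treated Y428F cells stayed below untreated WT cells. The log2 fold change of *Yap1* with PTH was 0.36 (adjusted p = 0.00154) in WT cells and 0.22 (adjusted p = 0.00739) in Y428F cells. Between the lines it was -0.37 with vehicle (adjusted p = 7.70e-06) and -0.49 with PTH (adjusted p = 1.35e-07). Whether reads from the introduced FLAG-tagged YAP were counted for *Yap1* was not tested. *Wwtr1* had 183 ± 2.36 CPM in WT cells with vehicle and 218 ± 6.32 with PTH, and 155 ± 4.63 and 184 ± 3.64 in Y428F cells (SD, n = 3). Its log2 fold change was 0.26 (adjusted p = 0.00873) in WT cells and 0.25 (adjusted p = 0.00215) in Y428F cells, and the line difference was -0.24 in both treatments (adjusted p = 0.000519 with vehicle and 0.000418 with PTH). With a stricter limit (adjusted p under 0.01 and log2 beyond 0.3), *Wwtr1* was called in none of these 4 comparisons, and *Yap1* was not called for PTH in Y428F cells. *Tead1* and *Tead4* thus differed between the lines in the direction opposite to *Yap1* and *Wwtr1*, while all 4 rose with PTH.

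The list of TEAD coactivators held 7 genes, of which 5 were tested, *Vgll1* and *Vgll2* being too low. With PTH, 2 of the 5 rose in WT cells, with a median log2 fold change of 0.16 against -0.015 over all genes, and these were *Yap1* and *Wwtr1*. In Y428F cells 2 rose and 1 fell, the steroid receptor coactivator gene *Ncoa2* (-0.27, adjusted p = 0.0444). Among all genes 6.88% rose and 4.91% fell in the WT line, against 6.61% and 5.78% in the Y428F line. Between the lines, 4 of the 5 were lower in Y428F cells in each treatment, with medians of -0.34 with vehicle and -0.45 with PTH against 0.012 and 0.019 over all genes, of which 22.7% and 23% were called lower. The other 2 lower genes were the *Ncoa2* gene (-0.34 and -0.45) and its relative *Ncoa1* (-0.48 and -0.53). No coactivator gene was called for the difference in response, and none had an unadjusted p under 0.05.

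Of 14 Hippo kinase module genes, 4 rose and 1 fell with PTH in WT cells, and 5 rose and 1 fell in Y428F cells. Of all genes, 6.88% rose and 4.91% fell in the former comparison, and 6.61% and 5.78% in the latter. Medians were 0.19 and 0.12, against -0.015 and -0.0067 over all genes. *Lats2*, the kinase that phosphorylates YAP and is itself induced by YAP and TEAD, rose most, by 0.68 in WT cells (adjusted p = 1.36e-05) and 0.75 in Y428F cells (adjusted p = 1.37e-07). The scaffold gene *Wwc2* (0.31 and 0.34) and the LATS activators *Mob1a* (0.25 and 0.25) and *Mob1b* (0.30 and 0.24) rose in both lines. The kinase gene *Taok2* fell in both (-0.29 and -0.28). Under the stricter limit *Lats2* and *Wwc2* stayed called with PTH in both lines. *Mob1a*, *Mob1b* and *Taok2* did not, nor did *Sav1* (0.22) in Y428F cells. Among all genes, that limit called 544 higher and 277 lower of 15583 in the WT line. In the Y428F line it called 535 and 407 of 17691. Between the lines, 6 of the 14 were higher and 2 lower in Y428F cells in each treatment. Of all genes, 22.4% were called higher and 22.7% lower with vehicle, and 22.8% and 23% with PTH. Under the stricter limit, 1 of the 14 was higher and 0 lower in each treatment. The shares of all genes just given are at adjusted p under 0.05 and do not apply to that count. List medians between the lines were 0.19 and 0.093, against 0.012 and 0.019 over all genes. *Lats2* was among the higher ones with vehicle (0.39) and with PTH (0.46), and *Taok2* among the lower ones (-0.25 and -0.23). The kinase genes *Lats1* (0.27 and 0.21) and *Taok1* (0.25 and 0.28) and *Nf2* (0.26 and 0.19), which encodes the upstream activator Merlin, were higher in both treatments. The scaffold gene *Wwc1*, at about the level of 1 CPM in Y428F cells, was called with PTH alone (0.96, adjusted p = 0.0490). With vehicle its difference was about as large but not called (0.90, adjusted p = 0.0716 by edgeR's quasi-likelihood test). None was called for the difference in response, and none had an unadjusted p under 0.05.

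Repressor partners and modifiers of TEAD or VGLL proteins, 12 genes, had 1 call for PTH in the WT line and 2 in the Y428F line, beside 11.8% and 12.4% of all genes called in those comparisons. The palmitoyltransferase gene *Zdhhc7* was the one that rose in WT cells (0.21, adjusted p = 0.0446), and *Irf2bp2* (0.57, adjusted p = 6.91e-06) and *Irf2bpl* (0.33, adjusted p = 0.00117) rose in Y428F cells. *Irf2bp2* encodes a VGLL4 partner and corepressor, and *Irf2bpl* a related protein. The list medians were 0.012 in WT cells and -0.024 in Y428F cells. Between the lines, 5 were higher and 2 lower in Y428F cells with vehicle, and 4 were higher and 3 lower with PTH, beside the shares of all genes called higher and lower given for the kinase module. Medians were 0.082 and -0.027, against 0.012 and 0.019 over all genes. The deubiquitinase gene *Usp11* (1.19 and 1.02) and the histone deacetylase genes *Hdac2* (0.54 and 0.48) and *Hdac1* (0.30 and 0.31) were higher. So was *Irf2bpl* (0.29 and 0.74), and *Irf2bp2* (-1.07 and -0.38) was lower. Under the stricter limit *Usp11*, *Hdac2* and *Irf2bp2* stayed called with vehicle, whereas *Hdac1*, *Irf2bpl*, *Mapk14* and *Ctbp1* did not. The shares of all genes are at adjusted p under 0.05 and do not apply to that limit. *Irf2bp2* thus had the same direction between the lines as *Vgll4*, while its response to PTH differed between the lines and that of *Vgll4* was not called to differ.

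Target genes of YAP, TAZ and TEAD are read here as a list of 23 genes, of which 22 were tested. With PTH, 8 rose and 2 fell in WT cells, and 10 rose and 1 fell in Y428F cells, with medians of 0.15 and 0.14 against -0.015 and -0.0067 over all genes. The shares of all genes were 6.88% up and 4.91% down in the WT line, and 6.61% up and 5.78% down in the Y428F line. *Ccn2*, which encodes the matricellular protein CTGF, had 5.22 ± 0.464 CPM in WT cells with vehicle and 20.6 ± 3.20 with PTH, and 18.9 ± 0.190 and 77.9 ± 9.00 in Y428F cells (SD, n = 3). As for *Tead4*, untreated Y428F cells lay within the range of PTH-treated WT cells, which was 17.1 to 23.3 CPM. The log2 fold change of *Ccn2* with PTH was 1.99 (adjusted p = 6.41e-07) in WT cells and 2.04 (adjusted p = 5.01e-11) in Y428F cells. *Ccn1* (1.08 and 0.62), which encodes CYR61, and *Crim1* (0.84 and 0.68), a transmembrane BMP antagonist, also rose in both lines. So did the ankyrin repeat gene *Ankrd1* (0.82 and 0.44) and the stromal transcription factor gene *Foxf2* (0.48 and 0.59), whereas the stress gene *Gadd45a* fell (-0.74 and -0.51).

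Between the lines the target list did not move one way. With vehicle, 8 of 22 were higher and 7 lower in Y428F cells, and with PTH 7 were higher and 8 lower, with medians of 0.0083 and 0.0014 against 0.012 and 0.019 over all genes, of which 45.1% and 45.7% were called in either direction. *Ccn2* was higher (1.86 and 1.92), and *Fjx1* (-1.53 and -1.63), *Ccdc80* (-1.18 and -1.29), *Rbms3* (-0.82 and -0.67) and *F3* (-1.12 and -0.63), which encodes tissue factor, were lower in both treatments. *Nuak2*, a kinase gene, was higher in Y428F cells (0.50 and 0.82). Only *F3* was called for the difference in response (0.49, adjusted p = 0.0271), a call lost in 9 of the 12 fits that left out a library and under the stricter limit, and 5 genes had an unadjusted p under 0.05. *Lats2* is counted in this list as well as among the Hippo kinase module genes. The lists were written with earlier results of these data known, so they are not independent evidence of a direction.

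**Figure D5:**
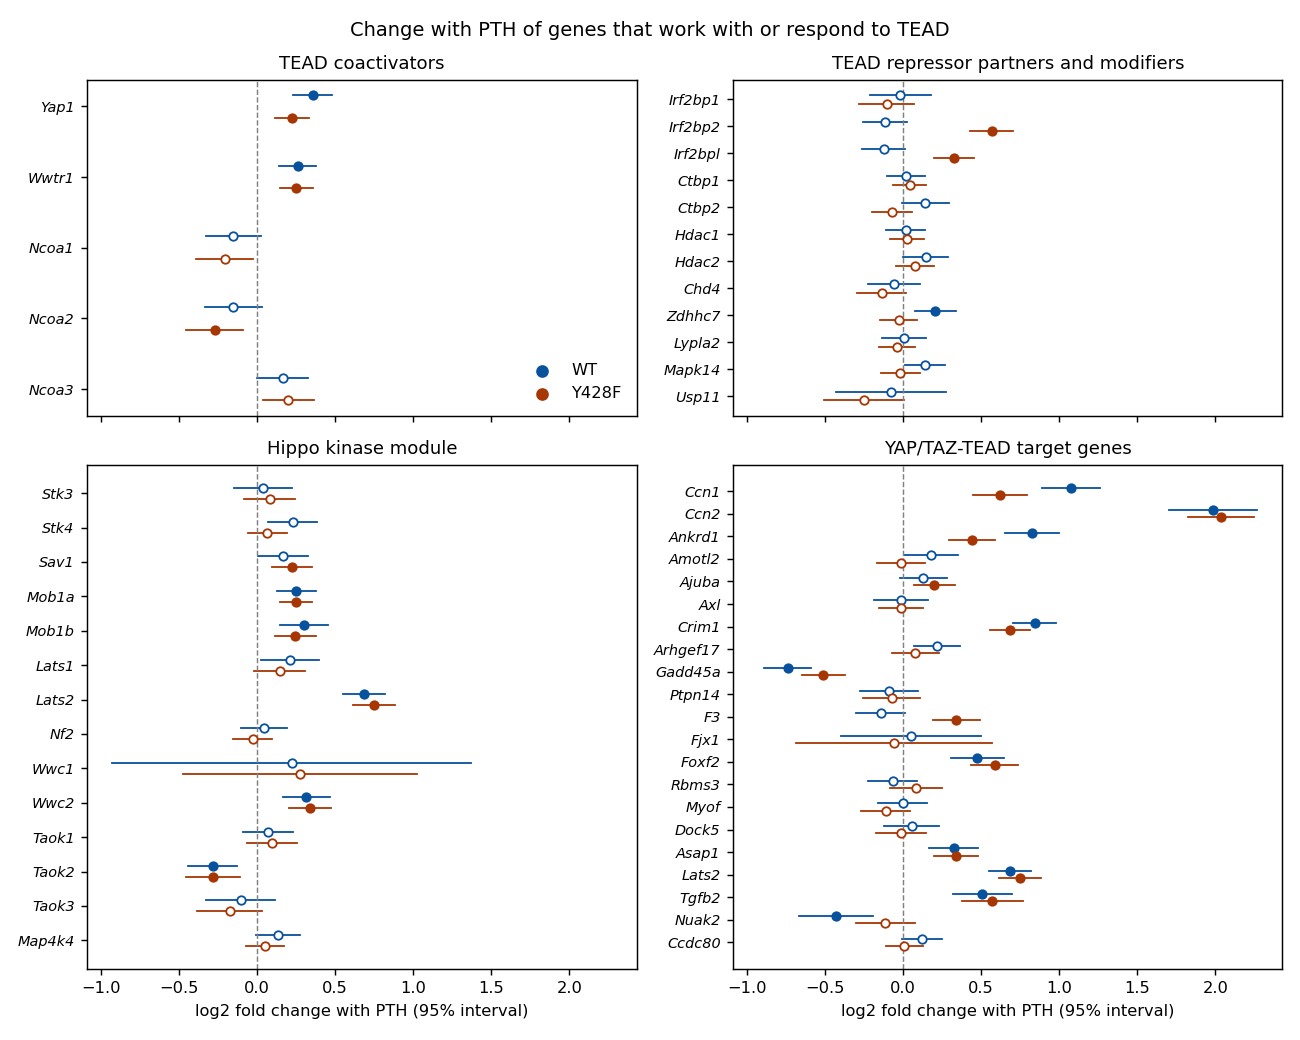
Log2 fold change with PTH (x axis) of the genes of the 4 lists, 1 panel per list, in WT cells (blue) and Y428F cells (brown), with bars for the 95% interval and filled points for called genes. *Ccn2* is the farthest from 0 among the genes drawn, and *Irf2bp2*, *Irf2bpl* and *F3* are called in Y428F cells only, while *Igfbp3*, *Nt5e*, *Vgll1* and *Vgll2*, each under 1 CPM in every group, are not drawn.

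Over the 12 libraries, the levels most like those of each gene were found by Pearson's r of log2 CPM among the 11218 genes that averaged 2 CPM or more. The libraries fall into 4 groups of 3, so a high r says mainly that 2 genes have similar group levels. The gene nearest to *Tead1* was *Usp31* (0.994), followed by *Ptpn12* (0.987) and *Mbnl2* (0.985). For *Tead4* the target gene *Ankrd1* came first (0.985), with *Atoh8* and *Clint1* next at 0.979 each. *Vgll3* was most like *Dusp3* (0.989), *Afg2a* (0.988) and the target gene *Crim1* (0.986). *Vgll4* was most like the immediate early gene *Egr1* (0.976) and the target gene *F3* (0.958). The genes nearest to *Tead2* were *Rnf135* (0.937), *AI597479* (0.924) and *Mmp24os1* (0.922), and those nearest to *Tead3* were *Aggf1* (0.936), *Rybp* (0.923) and *Ahcyl2* (0.922). Among the 6 genes themselves, *Tead1* and *Tead4* were closest (0.915), *Tead1* and *Vgll3* had 0.868, *Tead3* and *Vgll4* 0.781, and *Tead2* and *Vgll3* were the most opposed (-0.875).

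The stromal label was compared with 9 stromal markers, of which 7 were at 1 CPM or more in WT cells with vehicle, 8 in untreated Y428F cells and 7 in both PTH groups. Collagen gene *Col1a2* was the most abundant, *Thy1* was at 0 in every group, and no osteoblast marker of 4 reached 1 CPM. The summed stromal markers lay between 19940 and 23529 CPM in untreated WT cells and between 13767 and 14822 CPM in untreated Y428F cells. With PTH the range was 19634 to 22678 CPM in the WT line and 10274 to 12996 CPM in the Y428F line. Most of each sum came from *Col1a1* and *Col1a2*. With vehicle, *Pdgfra* averaged 95.2 CPM in WT cells and 31.6 CPM in Y428F cells, *Pdgfrb* 618 and 217, and *Vcam1* 158 and 46.6. *Eng* (501 and 297), *Cxcl12* (521 and 358) and both collagen genes were also lower in Y428F cells, whereas *Lepr* was higher (0.143 and 1.03 CPM). The endothelial gene *Cdh5* averaged 0.810 CPM in WT cells and 7.95 CPM in Y428F cells with vehicle, the haematopoietic gene *Ptprc* 0.853 and 2.79 CPM, and the adipocyte gene *Fabp4* 26.9 and 6.57 CPM, while *Adipoq* was at 0. Endothelial markers summed to between 0.569 and 1.07 CPM in WT cells and between 7.50 and 9.06 CPM in Y428F cells with vehicle. Haematopoietic markers summed to between 1.06 and 1.54 CPM and between 3.08 and 3.72 CPM, and those of adipocytes to between 23.4 and 33.9 CPM and between 6.08 and 7.48 CPM. Each of these sums came mainly from the gene named for it, *Cdh5*, *Ptprc* or *Fabp4*. In Y428F cells with vehicle the endothelial genes *Pecam1* and *Kdr* averaged 0.247 and 0.0885 CPM. The haematopoietic genes *Cd68* and *Cd79a* averaged 0.587 and 0.0715 CPM there, and the adipocyte gene *Plin1* 0.125 CPM. No skeletal muscle or epithelial marker of 3 each reached 1 CPM in any group, and *Myod1*, *Myog*, *Epcam* and *Krt5* were at 0. The part of these markers in the line differences of *Tead1*, *Tead3*, *Tead4* and *Vgll4* was not tested.

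Both genes of chromosome 6 differed between the lines in opposite directions, *Tead4* up and *Vgll4* down. The median log2 difference with vehicle of the 504 genes on that chromosome that averaged 4 CPM or more was -0.16, and that of the 754 such genes on chromosome 7, where *Tead1* and *Tead2* lie, was -0.0038. On chromosome 17, with *Tead3*, it was -0.076 over 532 genes. The difference of *Tead3* was -0.24 and that of *Vgll4* -0.48, so both were below the median of their chromosome. Whether the number of copies of a chromosome differs between the lines was not tested. The antisense gene *2310014F06Rik* at *Tead1* averaged 0.296 CPM and *Cd37*, which overlaps *Tead2* on the other strand, 0.299 CPM. Whether the libraries were counted by strand is not given in the sources used here. The levels of these 2 overlapping genes are small beside those of the 2 TEAD genes. No level was available for the long non-coding RNA genes *Gm73183* at *Tead2* and *Gm68475* at *Tead4*, both on the other strand.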

How the data were processed

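RNA-Seq of 12 libraries of W-20 cells was examined, 3 in each of 4 groups taken from the sample titles. The authors aligned the reads with STAR 2.7.10b to GRCm39 and deposited RSEM expected counts of each gene, unscaled for depth or length. After rounding to whole numbers, a quasi-likelihood model was fitted with edgeR 4.0.16 under R 4.3.3, with TMM factors. Genes needed 10 counts or more in total, and p-values were adjusted over all genes tested (Benjamini-Hochberg). The response of WT cells was fitted on the 6 WT libraries and every other comparison on all 12. Identifiers were matched to GENCODE vM39 for 56236 genes, and 744 were not matched. Promoter windows and exon lengths came from that annotation, with 1-based positions in GRCm39, and CPM used for correlations had a prior count of 2. The authors mapped reads with an earlier, basic GENCODE annotation, so the exon lengths can include exons absent from their counting. The effect of this on levels per kilobase and on the TEAD shares was not tested.

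The settings tried were the Wald test of DESeq2 1.42.0, its size factors, library totals without TMM, no filter or a filter in every library, a block for the replicate number, a stricter limit on calls, a fit of WT cells on all 12 libraries, other gene lengths, and each library left out in turn. The scripts were first checked on simulated data. The text names the 6 genes, *Yap1* and *Wwtr1*, up to 5 genes with the largest change among the called ones of each list and comparison, and the 3 genes most like each of the 6, of which 1 is not reported here. The genes and lists were chosen with earlier results of these data known. Library totals were between 17127897 and 19057319 counts.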

Additional observations from a re-analysis of the deposited data

Results flagged for a closer look

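The response to PTH was called to differ between the lines for 3 genes of the lists, by the test of the difference itself. These were 2 of 12 tested repressor partners and modifiers and 1 of 22 tested target genes. None of the 5 tested coactivator genes or 14 kinase module genes was called, and of all genes 0.413% were called. The lists were written with earlier results of these data known. *Irf2bp2*, which encodes a corepressor that binds VGLL4, had 229 ± 16.5 CPM in WT cells with vehicle and 210 ± 9.62 with PTH (SD, n = 3), and 109 ± 7.23 and 162 ± 8.27 CPM in Y428F cells. Its log2 fold change was -0.12 in WT cells and 0.57 in Y428F cells, a difference of 0.69 (SE 0.092, adjusted p = 0.000635 by edgeR's quasi-likelihood test), and the call was kept with each of the 12 libraries left out. The related gene *Irf2bpl* changed by -0.12 in WT cells and 0.33 in Y428F cells, a difference of 0.46 (SE 0.088, adjusted p = 0.0215). Its call was lost in 4 of the 12 fits that left out a library, with an adjusted p of up to 0.0821 and a difference of 0.40 to 0.50, and under the stricter limit (adjusted p under 0.01 and log2 beyond 0.3). The tissue factor gene *F3* changed by -0.14 in WT cells and 0.34 in Y428F cells, a difference of 0.49 (SE 0.099, adjusted p = 0.0271). This call was lost in 9 of the 12 fits that left out a library, with an adjusted p of up to 0.116 and a difference of 0.44 to 0.53, and under the same stricter limit.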

How the results depend on the processing

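The 13 calls of the 6 genes were repeated in 250 values under the alternatives, and 247 of these kept their direction and stayed called. The other 3 kept their direction: *Tead3* between the lines with vehicle without the third WT library with vehicle, and *Tead3* with vehicle and *Vgll4* with PTH under the stricter limit (adjusted p under 0.01 and log2 beyond 0.3), so that the lower members numbered 1 with vehicle and 0 with PTH. That limit also ended the calls of *Wwtr1* with PTH in both lines (0.26 and 0.25) and between the lines in both treatments (-0.24 each). It ended those of *Yap1* with PTH in Y428F cells (0.22) and of *Irf2bpl* between the lines with vehicle (0.29). For the difference in response it ended those of *Irf2bpl* (adjusted p = 0.0215 by edgeR's quasi-likelihood test) and *F3* (adjusted p = 0.0271). Other list genes lost calls too, among them *Mob1a*, *Mob1b* and *Taok2* with PTH in both lines. Further ones were *Zdhhc7* with PTH in WT cells (0.21), *Ncoa2* with PTH in Y428F cells (-0.27) and *Hdac1* between the lines with vehicle (0.30). The stricter limit left 1 of the 6 higher and 0 of the 2 lower Hippo kinase module genes between the lines in each treatment. The share of all genes called between the lines at that limit is not given here, so this count has no reference. Uncalled values changed sign in 17 of 326 cases and were never called. For *Tead3* with PTH in WT cells these were 0.0031 with DESeq2's size factors, 0.0031 with its Wald test and 0.00021 with the replicate block. *Vgll3* between the lines with PTH became 0.039 with library totals. Outside the 6 genes, the difference in response of *Wwtr1* became 0.0082 with library totals, 0.0012 with no filter on low counts and 0.0010 with at least 10 counts in every library. The causes were not tested. With 1 library left out, the ranges were -0.063 to 0.077 for *Tead3* and -0.13 to 0.018 for *Vgll4* with PTH in WT cells, -0.011 to 0.024 for *Tead2* between the lines with vehicle, -0.075 to 0.0031 for *Vgll3* between the lines with PTH, and, for the difference in response, -0.13 to 0.046 for *Tead1*, -0.0077 to 0.029 for *Tead2* and -0.035 to 0.016 for *Wwtr1*.

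Counts over all genes moved more. With PTH in WT cells, library totals gave 1216 lower genes, the stricter limit 544 higher and 277 lower, and fits without 1 library 613 to 1305 higher and 292 to 906 lower. In Y428F cells the stricter limit gave 535 and 407, and fits without 1 library 803 to 1329 higher and 616 to 1186 lower. Between the lines with vehicle, fits without 1 library left 1 to 2 members lower. For the difference in response, no filter gave 96 higher and 120 lower genes, DESeq2's Wald test 52 and 72, the stricter limit 6 and 16, and fits without 1 library 6 to 37 higher and 18 to 57 lower. Same-numbered libraries of different groups did not deviate together (mean r 0.0019 over 18 pairs, from -0.031 to 0.037, with 5 of 12 libraries closest to their own number). No pairing by number was thus seen, but this cannot show that such libraries were prepared apart, on which the labels are silent. With the replicate block, 936 genes rose and 707 fell in WT cells with PTH, 1196 and 1077 in the mutant line, 3974 and 4002 between the lines with vehicle, 3993 and 4034 with PTH, and 31 and 45 for the difference in response, and the number of members called was the same in each comparison. With the longest transcript as length, the *Tead2* share of the TEAD sum was 66.8% and 59.0% in WT cells with vehicle and with PTH, and without length it was 53.6% and 42.2%, with 48.9% and 37.8% in Y428F cells. The depth limits *Tead4* most, at 93 to 381 counts per library.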
